A study of Rattus norvegicus with 30 samples.

Results

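Primary cultures of rat inner medullary collecting duct cells kept at 900 mosmol/kg (steady 900) were set against cells kept at 600 mosmol/kg (steady 600), each without an osmotic challenge. The 6 arrays of these groups were chosen by their sample titles from 30 arrays in all, 3 arrays per group. For context, values are also given for cells from 600 mosmol/kg challenged with 900 mosmol/kg for 24 h (24 h at 900) and for cells kept at 300 mosmol/kg (steady 300), again 3 arrays each. The tissue of origin was the renal inner medulla. Neither the solutes that set the osmolality nor the time in culture, strain, age and number of rats are stated in the labels. For all samples the field on treatment lists cyclosporin A at 5 µM, a calcineurin inhibitor, for an indicated time, but it is named in no title. Which cultures were given it cannot be told from the labels. Nothing states that replicates were independent cultures or rats, and p-values therefore measure only spread among these arrays, which may be technical.

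The collecting duct is the last part of the kidney tubule, and its inner medullary part lies in the most hypertonic tissue of the body. Vasopressin binds its receptor on principal cells, cyclic AMP rises, and the water channel aquaporin-2 moves into the apical membrane. Cells that live in hypertonic surroundings take up or make compatible organic osmolytes such as myo-inositol, betaine and sorbitol, and the transcription factor NFAT5 is known to switch on the genes for this.

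All values are log2 values as deposited, after robust multi-array average (RMA) summarisation, and a difference of 1 is a 2-fold change. The arrays of a group resembled each other more than those of the other group. Pearson's r over genes, as a description, was 0.997 to 0.998 within the groups and 0.983 to 0.987 between them, and each of the 6 arrays was nearest to its own group. Array medians over all probe sets lay between 5.69 and 5.74. No detection calls were used, and the number of arrays limits the precision. Of the 12 markers of principal cells 0 lay below the 25th percentile of genes (4.66) in all 6 arrays, against 2 of 13 intercalated cell markers, 4 of 13 loop of Henle and proximal tubule markers, 2 of 19 fibroblast and 3 of 19 leukocyte markers. Probe sets differ in brightness, so this describes the table only.

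Steady 900 and steady 600 cells differed in many genes of the collecting duct, of connective tissue and of the cell cycle. Of 14506 genes, 1641 were higher in steady 900 cells (11.3%) and 1876 were lower (12.9%), at an adjusted p under 0.05. At least 2-fold, 195 genes were higher (1.34%) and 265 were lower (1.83%). The median difference over all genes was -0.01. Counts for the gene lists below are to be read against the shares of 11.3% higher and 12.9% lower.

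Mmp13, a collagenase, had the largest increase that the naming rule picked. It read 11.30, 11.40 and 11.35 in steady 900 cells, against 8.42, 7.99 and 8.23 in steady 600 cells (log2 difference 3.13 ± 0.17 SE, 8.78-fold, adjusted p = 1.31e-14). Guca2a and Guca2b encode guanylin and uroguanylin, peptides that activate guanylate cyclase C in the gut and act on salt excretion in the kidney. Guca2a read 9.35, 9.02 and 9.18 in steady 900 cells, against 6.68, 6.11 and 6.05 in steady 600 cells (7.50-fold, adjusted p = 2.76e-13). Guca2b read 9.57, 9.38 and 9.40 in steady 900 cells, against 7.10, 6.94 and 6.78 in steady 600 cells (5.69-fold, adjusted p = 9.98e-16). In none of these 3 genes did the groups overlap, which the naming rule required. The vasopressin-regulated urea transporter gene Slc14a2 read 11.36, 11.33 and 11.25 in steady 900 cells, against 9.28, 8.84 and 8.73 in steady 600 cells (5.14-fold, adjusted p = 2.86e-14). Aqp2, the gene of the vasopressin-regulated water channel, read 12.13, 12.00 and 12.01 in steady 900 cells, against 10.61, 9.92 and 9.68 in steady 600 cells (3.92-fold, adjusted p = 5.27e-09). Replicate 1 of steady 600 was the highest of its group for both transporters. It lay below all steady 900 arrays, as the rule required of genes picked by size. Bsnd, the barttin subunit of kidney chloride channels, was 3.96-fold higher in steady 900 cells (adjusted p = 1.22e-12). The chemokine gene Ccl20 read 8.73, 8.57 and 8.61 in steady 900 cells, against 6.43, 6.48 and 6.23 in steady 600 cells (4.78-fold, adjusted p = 2.52e-12). Fa2h, a fatty acid 2-hydroxylase of sphingolipid synthesis, varied most among the increases: 6.88, 6.90 and 5.95 in steady 900 cells, against 4.83, 3.90 and 4.18 in steady 600 cells (4.84-fold, adjusted p = 2.12e-09). Its steady 600 mean of 4.30 lay below the 25th percentile of genes, where array values flatten, so the fold of Fa2h can be understated. The other increases picked by size were the calcium-binding protein gene S100a5 (5.17-fold), the aspartic protease gene Ctse (4.85-fold), the glycoprotein hormone subunit gene Gpha2 (4.69-fold) and the membrane progestin receptor gene Paqr5 (4.04-fold).

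**Figure D1:**
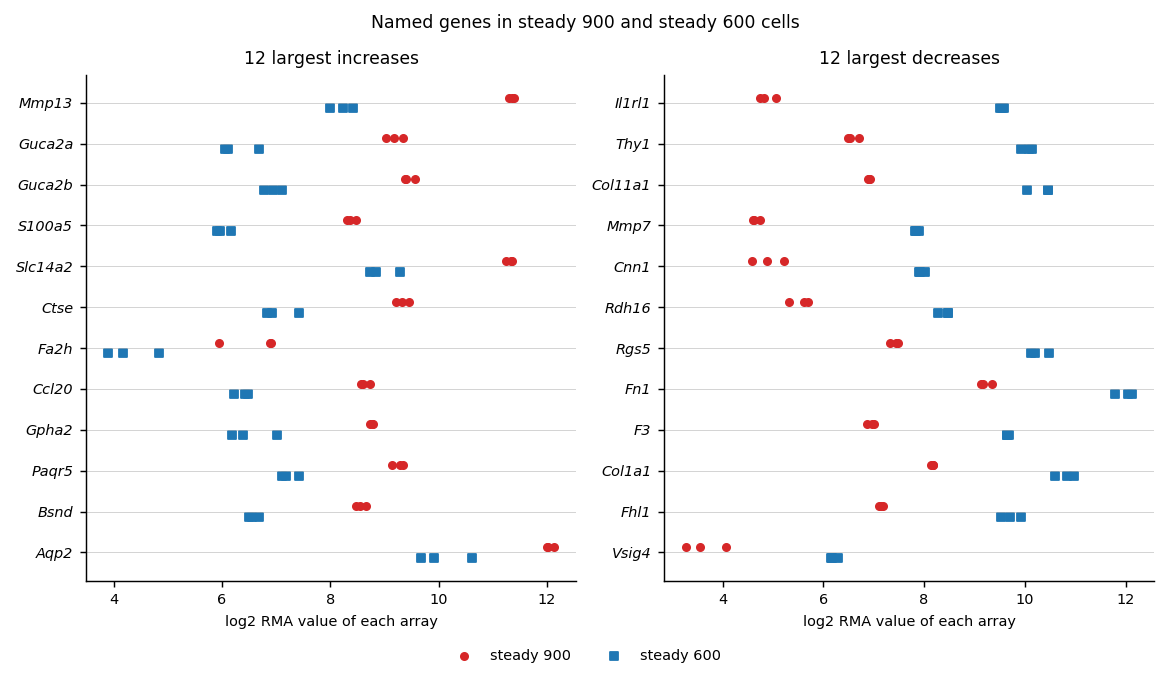
Log2 RMA value (x axis) of each array for the 12 largest increases (left) and 12 largest decreases (right), with steady 900 as red circles above steady 600 as blue squares. The 3 arrays of the groups do not overlap in any of the 24 genes, which the naming rule required.

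Il1rl1, the receptor of interleukin-33, had the largest difference of the decreases. It read 4.82, 5.07 and 4.75 in steady 900 cells, against 9.50, 9.58 and 9.55 in steady 600 cells (log2 difference -4.66 ± 0.14 SE, 25.3-fold lower, adjusted p = 3.61e-20). The surface glycoprotein gene Thy1, a fibroblast marker, read 6.70, 6.52 and 6.49 in steady 900 cells, against 9.93, 10.14 and 10.08 in steady 600 cells (11.2-fold lower, adjusted p = 3.66e-20). Col11a1, a fibrillar collagen chain, read 6.91, 6.88 and 6.92 in steady 900 cells, against 10.04, 10.46 and 10.47 in steady 600 cells (10.7-fold lower, adjusted p = 3.61e-20). Arrays within a group stayed close in all 3 genes, and the groups lay more than 3 log2 units apart. Mmp7, the matrilysin gene, read 4.62, 4.75 and 4.60 in steady 900 cells, against 7.83, 7.82 and 7.90 in steady 600 cells (9.17-fold lower, adjusted p = 1.78e-13). Cnn1, a smooth muscle calponin, read 4.59, 4.88 and 5.22 in steady 900 cells, against 7.92, 8.02 and 7.89 in steady 600 cells (8.24-fold lower, adjusted p = 3.06e-16). The pericyte-associated regulator of G protein signalling Rgs5 was 7.23-fold lower and the LIM-domain gene Fhl1 5.96-fold lower in steady 900 cells. Fn1, encoding fibronectin, read 9.14, 9.34 and 9.17 in steady 900 cells, against 11.80, 12.05 and 12.13 in steady 600 cells (6.85-fold lower, adjusted p = 1.84e-18). The rest were the tissue factor gene F3 (6.59-fold lower), the collagen gene Col1a1 (6.23-fold lower), the retinol dehydrogenase gene Rdh16 (7.28-fold lower) and the macrophage receptor gene Vsig4 (5.96-fold lower). The steady 900 means of Mmp7 and Vsig4, 4.66 and 3.63, were low on the scale, where array values flatten, so their folds can be understated. Il1rl1 and Cnn1 read little higher than Mmp7 in steady 900 cells, and the same limit holds for them.

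Of 20 genes of water and urea transport and vasopressin signalling, 11 were higher in steady 900 cells and 1 was lower, with a median difference of 0.41 against -0.01 over all genes. Aqp3, a basolateral water channel, read 11.34, 11.07 and 11.10 in steady 900 cells, against 9.74, 9.12 and 9.04 in steady 600 cells (3.65-fold, adjusted p = 3.81e-10). Slc14a1, another urea transporter gene, read 9.65, 9.70 and 9.70 in steady 900 cells, against 8.12, 7.92 and 7.97 in steady 600 cells (3.21-fold, adjusted p = 4.06e-11). The vasopressin receptor gene Avpr2 read 9.63, 9.61 and 9.60 in steady 900 cells, against 8.43, 8.31 and 8.24 in steady 600 cells (2.44-fold, adjusted p = 9.47e-10). Aqp1 and Aqp4 were also higher, with log2 differences of 1.07 and 0.81, as was the adenylate cyclase gene Adcy6 at 0.70. The lower member was the kinase subunit gene Prkar1a (log2 difference -0.17). Its call was lost with median centring, cyclic loess or only the compared arrays, and without some single arrays. Gnas, the stimulatory G protein gene, differed by 0.01 and Aqp6 by -0.00, and neither passed.

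Of 12 principal cell markers, 8 were higher and 0 lower in steady 900 cells. Several of these markers, among them Aqp3, Avpr2, Gata3 and Fxyd4, also count in the transport and transcription factor lists. The counts of these lists are therefore not separate results. Their mean over the list ranged from 8.94 to 8.97 in steady 900 arrays, against 7.92 to 8.23 in steady 600 arrays. The transcription factor gene Elf5 read 10.82, 10.74 and 10.81 in steady 900 cells, against 9.43, 9.14 and 9.14 in steady 600 cells (2.94-fold, adjusted p = 2.43e-08). The epithelial sodium channel split by subunit. Scnn1a read 6.83, 7.21 and 7.14 in steady 900 cells, against 6.28, 6.42 and 6.50 in steady 600 cells (1.58-fold, adjusted p = 7.77e-06), while Scnn1b at -0.01 and Scnn1g at -0.19 did not pass. Hsd11b2, which protects the mineralocorticoid receptor from glucocorticoids, differed by 0.08 and did not pass.

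Among 15 transcription factors of the collecting duct and its development, 10 were higher and 2 lower. Ehf, Pax2, Gata3 and Pax8 had log2 differences of 0.73, 0.61, 0.54 and 0.53. The lower members were Hoxd10 at -0.47 and Lhx1, which acts in early nephron patterning, at -0.71. Tfcp2l1 differed by -0.01 and did not pass. Of 20 genes of sodium, potassium and chloride transport, 11 were higher and 2 lower. Beside Bsnd, the sodium pump regulator genes Fxyd2 and Fxyd4 had differences of 1.18 and 0.85, and Nr3c2, the mineralocorticoid receptor gene, 0.57. Cftr, a chloride channel gene, read 5.45, 5.51 and 5.65 in steady 900 cells, against 7.01, 7.00 and 6.98 in steady 600 cells (2.74-fold lower, adjusted p = 1.64e-10). Fxyd5 was the other member that fell, by 1.01 on the log2 scale.

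Of 14 osmolyte genes, 6 were higher and 1 lower in steady 900 cells, with a median difference of 0.22. Slc5a3, the myo-inositol transporter gene, read 9.71, 9.81 and 9.66 in steady 900 cells, against 8.33, 8.19 and 8.10 in steady 600 cells (2.87-fold, adjusted p = 6.68e-14). Cdo1, which feeds taurine synthesis, read 7.59, 7.56 and 7.44 in steady 900 cells, against 6.11, 5.90 and 5.60 in steady 600 cells (3.16-fold, adjusted p = 3.50e-09). Aldose reductase, which makes sorbitol, is encoded by Akr1b1, which read 13.26, 13.31 and 13.21 in steady 900 cells, against 12.71, 12.68 and 12.62 in steady 600 cells (1.51-fold, adjusted p = 1.68e-08). The highest value in the table was 13.88, and array values flatten near the top of the scale, so this fold can be understated. Isyna1, the first enzyme of inositol synthesis, differed by 0.78. The taurine transporter gene Slc6a6 read 10.35, 10.37 and 10.39 in steady 900 cells, against 10.55, 10.51 and 10.47 in steady 600 cells (log2 difference -0.14 ± 0.06 SE, adjusted p = 0.109). Its groups did not overlap, but the difference did not pass. The lower member was Gdpd5, whose product breaks down glycerophosphocholine, at -0.46.

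Of 12 tonicity-responsive genes, 4 of which also stand among the osmolyte genes and 2 among the transport genes above, 9 were higher and 0 lower, with a median of 0.90. Prss35, a serine protease-like gene, read 10.87, 10.78 and 10.80 in steady 900 cells, against 9.36, 9.22 and 9.15 in steady 600 cells (2.98-fold, adjusted p = 5.33e-12). Nfat5 itself read 9.86, 10.05 and 9.72 in steady 900 cells, against 9.53, 9.55 and 9.65 in steady 600 cells (log2 difference 0.30 ± 0.11 SE, 1.23-fold, adjusted p = 0.0431). Its groups did not overlap. That call was lost without any 1 of 5 of the 6 arrays, with adjusted p of 0.0549 to 0.239, and the difference ranged from 0.21 to 0.33.

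**Figure D2:**
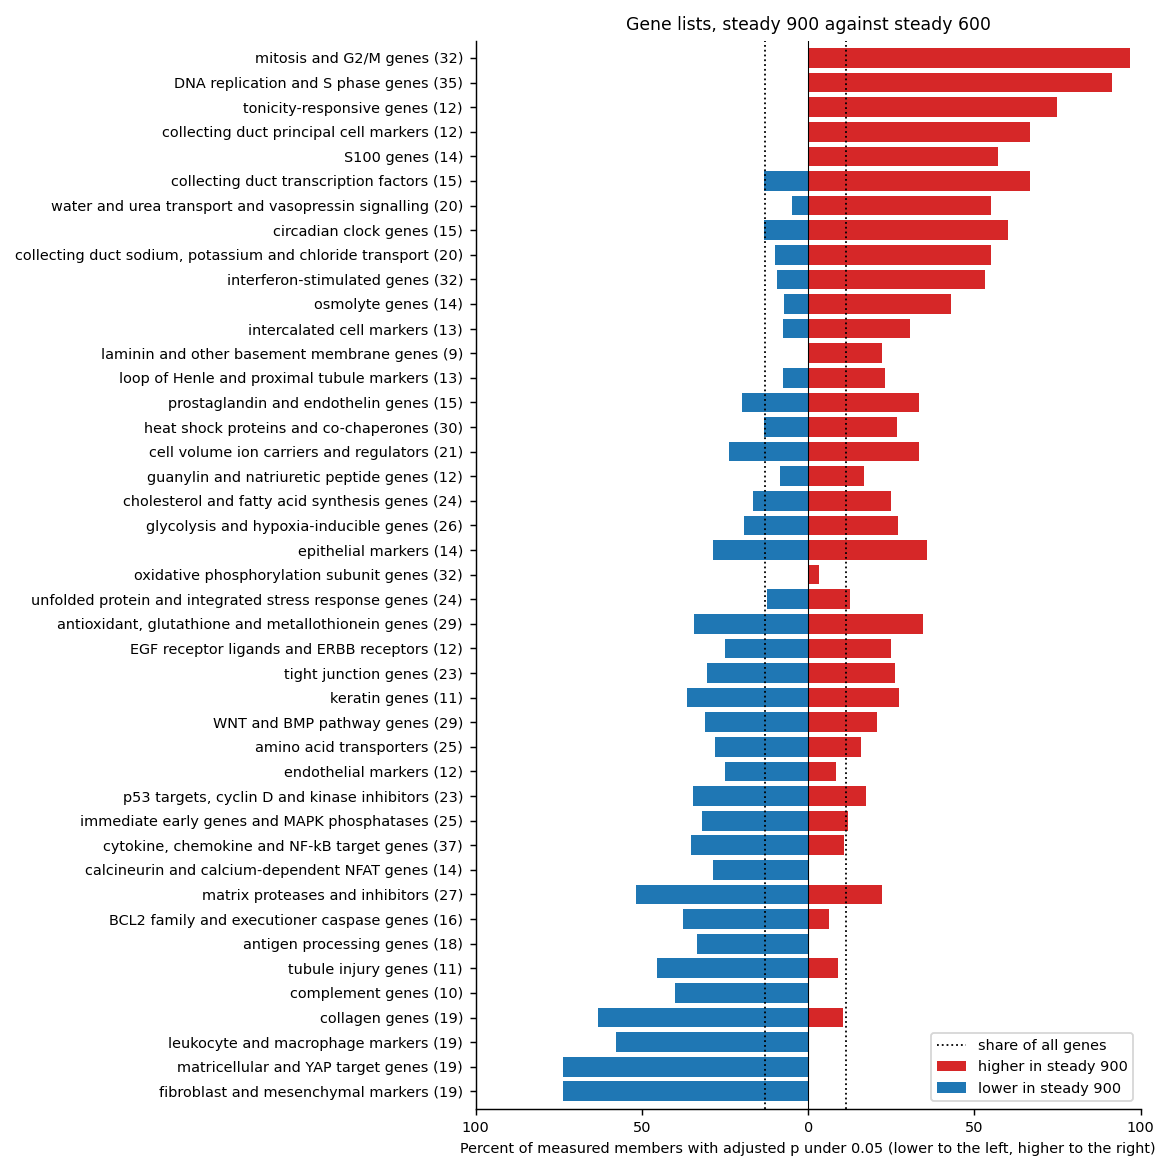
Percent of the measured members of each gene list (x axis, number measured in brackets) that were higher (red, to the right) or lower (blue, to the left) in steady 900 than in steady 600 cells at an adjusted p under 0.05. Dotted lines mark the share of all genes, 11.3% higher and 12.9% lower. Mitosis and DNA replication genes stand at the top, and fibroblast markers and matricellular genes at the bottom.

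The 2 guanylin genes stood apart from the rest of their list. Of 12 guanylin and natriuretic peptide genes, 2 were higher and 1 lower, and the guanylate cyclase C receptor gene Gucy2c differed by -0.06 and did not pass. The lower member, the kinase gene Prkg1, lost its call in at least 1 alternative. Guca2a and Guca2b are neighbours in RefSeq's rat gene table (GRCr8). Of 14 S100 genes, which encode small calcium-binding proteins, 8 were higher and 0 lower, with a median of 0.64. S100a1 read 8.71, 8.76 and 8.96 in steady 900 cells, against 7.52, 7.50 and 7.36 in steady 600 cells (2.55-fold, adjusted p = 1.08e-10). S100a4 was 2.46-fold higher, and S100a13 and S100g differed by 1.03 and 1.01. S100a8 and S100a9, the neutrophil calprotectin genes, differed by 0.19 and -0.07 and did not pass.

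Of 15 prostaglandin and endothelin genes, 5 were higher and 3 lower. The enzyme genes parted. Ptges, the inducible prostaglandin E synthase, read 8.30, 8.23 and 8.14 in steady 900 cells, against 6.83, 6.27 and 6.08 in steady 600 cells (3.56-fold, adjusted p = 2.12e-11). Ptgs1, the constitutive cyclooxygenase, read 11.82, 11.77 and 11.71 in steady 900 cells, against 11.13, 11.07 and 11.07 in steady 600 cells (1.60-fold, adjusted p = 2.84e-08). Ptgs2, the inducible cyclooxygenase, read 5.99, 5.98 and 5.89 in steady 900 cells, against 6.87, 6.83 and 6.88 in steady 600 cells (1.88-fold lower, adjusted p = 5.89e-09). Slco2a1, a prostaglandin uptake carrier, was 2.27-fold higher, and the endothelin gene Edn1 fell by 0.48 on the log2 scale.

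Genes of cell division were higher in steady 900 cells almost as whole lists. Of 32 mitosis and G2/M genes, 31 were higher and 0 lower, with a median of 0.91, and of 35 DNA replication and S phase genes 32 were higher and 0 lower, with a median of 0.60. The groups did not overlap for 31 and 33 members, against 42.3% of all genes. The mean over the mitosis list ranged from 7.24 to 7.44 in steady 900 arrays, against 6.39 to 6.53 in steady 600 arrays. Top2a, the topoisomerase that untangles chromosomes, read 9.01, 9.18 and 8.90 in steady 900 cells, against 7.82, 7.45 and 7.58 in steady 600 cells (2.66-fold, adjusted p = 9.76e-08). Ccna2, cyclin A, read 7.50, 7.51 and 7.24 in steady 900 cells, against 6.34, 6.37 and 6.06 in steady 600 cells (2.24-fold, adjusted p = 2.30e-08). Plk1, a mitotic kinase, read 7.60, 7.94 and 7.79 in steady 900 cells, against 7.12, 7.06 and 6.93 in steady 600 cells (1.67-fold, adjusted p = 9.05e-05). The kinetochore genes Spc25, Ndc80 and Nuf2 had differences of 1.17, 1.05 and 1.05. Ube2c, a ubiquitin-conjugating enzyme of mitosis, was the member that did not pass, at 7.15, 6.78 and 7.29 in steady 900 cells, against 7.17, 6.79 and 6.82 in steady 600 cells. Of the S phase genes, Cdc6, which loads the replicative helicase, read 8.38, 8.47 and 8.37 in steady 900 cells, against 7.11, 6.96 and 6.83 in steady 600 cells (2.71-fold, adjusted p = 8.77e-11). Rrm2, a ribonucleotide reductase subunit, was 2.51-fold higher and Mcm5, a helicase subunit, 2.44-fold higher. Tk1, Gins2 and Rfc3 did not pass, at 0.40, 0.25 and -0.00.

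Since these genes moved together, the 250 bases before the start of each gene were searched, on both strands, for the letters of the cell cycle homology region (CHR; TTTGAA, or TTCAAA on the other strand) and of the CCAAT box (CCAAT, or ATTGG). Only genes with 1 start in the RefSeq table of GRCr8 were used. Of 26 such mitosis and G2/M promoters, 12 held the CHR letters (46.2%), 19 held the CCAAT letters (73.1%) and 12 held both (46.2%). Of 11520 promoters of genes on the array, 14.0% held the first, 35.5% the second and 5.30% both. Over all 24206 such promoters of the table the shares were 16.1%, 34.4% and 5.82%. Of 27 S phase promoters, 1 held the CHR letters (3.70%), 15 the CCAAT letters (55.6%) and 0 both. A match is a description of the letters, not a known site. The 2 mitosis members with the largest increase among those with both motifs were Top2a (chr10:84473094-84473343 on the minus strand) and Spc25 (chr3:74396719-74396968 on the minus strand). They are printed 5′ to 3′ in the direction of the gene and end at the base before its start, with the matches in capitals, to show how the letters lie.
Top2a: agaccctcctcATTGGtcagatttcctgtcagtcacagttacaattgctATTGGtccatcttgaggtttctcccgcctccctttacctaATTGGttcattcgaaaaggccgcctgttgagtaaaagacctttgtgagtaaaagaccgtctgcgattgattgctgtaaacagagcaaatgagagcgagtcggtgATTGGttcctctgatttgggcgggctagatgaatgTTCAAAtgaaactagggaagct
Spc25: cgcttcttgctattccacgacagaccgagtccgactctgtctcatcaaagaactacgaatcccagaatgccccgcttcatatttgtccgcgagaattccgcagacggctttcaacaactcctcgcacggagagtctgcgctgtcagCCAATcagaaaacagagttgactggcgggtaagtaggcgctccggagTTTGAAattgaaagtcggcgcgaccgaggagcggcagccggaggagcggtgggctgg
With -1 as the base before the start, the CHR letters of Top2a lie at -22 to -17, on the other strand, and 4 CCAAT matches, also on the other strand, lie further from the start. In Spc25 the CHR letters lie at -57 to -52 and 1 CCAAT match at -104 to -100. The motifs do not overlap in either.

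Among 23 p53 targets, D-type cyclins and cyclin-dependent kinase inhibitors, 4 were higher and 8 lower. The inhibitor gene Cdkn2b read 8.35, 8.27 and 8.39 in steady 900 cells, against 9.30, 9.47 and 9.43 in steady 600 cells (2.09-fold lower, adjusted p = 1.39e-11). Cdkn1a, the p21 inhibitor and a p53 target, read 10.01, 10.02 and 9.92 in steady 900 cells, against 10.52, 10.70 and 10.78 in steady 600 cells (1.61-fold lower, adjusted p = 5.93e-07). The cyclin gene Ccnd2 was 2.84-fold lower, whereas Ccnd1 and Ccnd3 differed by 0.11 and 0.17 and did not pass. Cdkn2c, the p18 inhibitor, was 1.87-fold higher (adjusted p = 2.09e-05). Members of this list therefore did not move one way.

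Genes of fibroblasts and of their matrix were lower in steady 900 cells. Of 19 fibroblast and mesenchymal markers 0 were higher and 14 lower, with a median of -1.32, and 10 of the 14 were at least 2-fold lower. Their list mean ranged from 6.72 to 6.75 in steady 900 arrays, against 7.90 to 8.04 in steady 600 arrays. The intermediate filament gene Vim read 10.52, 10.39 and 10.30 in steady 900 cells, against 11.74, 11.93 and 11.92 in steady 600 cells (2.75-fold lower, adjusted p = 9.23e-14). Tagln, an actin-binding gene of smooth muscle, read 9.74, 9.74 and 9.77 in steady 900 cells, against 11.39, 11.63 and 11.72 in steady 600 cells (3.55-fold lower, adjusted p = 1.48e-14). Acta2, smooth muscle actin, was 2.79-fold lower. Twist1, Lum and Tcf21 differed by -0.01, -0.11 and 0.01 and did not pass. In these bulk samples fewer cells of a type and less RNA per cell cannot be told apart.

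Of 19 collagen genes, 2 were higher and 12 lower, with a median of -0.70. The fibrillar chains Col1a2, Col3a1 and Col5a2 differed by -2.26, -1.89 and -1.81 on the log2 scale. Col1a2 and Col3a1 also count among the fibroblast markers above. Both members that were higher encode chains of the basement membrane network. Col4a3 read 8.68, 8.69 and 8.64 in steady 900 cells, against 7.96, 7.89 and 7.97 in steady 600 cells (1.66-fold, adjusted p = 1.35e-06), and Col4a4 was 1.95-fold higher. Col4a1 fell by 0.79. Of 19 matricellular genes and targets of the mechanosensitive factor YAP, 0 were higher and 14 lower, with a median of -0.75. Ankrd1 read 7.05, 7.07 and 6.88 in steady 900 cells, against 9.43, 9.54 and 9.46 in steady 600 cells (5.57-fold lower, adjusted p = 1.65e-16). Ccn1 was 3.59-fold lower and Ccn2, connective tissue growth factor, 2.92-fold lower. The growth factor gene Tgfb3 read 6.85, 6.99 and 7.00 in steady 900 cells, against 9.15, 9.40 and 9.46 in steady 600 cells (5.24-fold lower, adjusted p = 8.12e-17). Tgfb1 differed by -0.14 and did not pass.

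Of 27 matrix proteases and their inhibitors, 6 were higher and 14 lower. Mmp13 rose, as given above, while the gelatinase gene Mmp2 read 6.66, 6.30 and 6.38 in steady 900 cells, against 8.24, 8.39 and 8.50 in steady 600 cells (3.81-fold lower, adjusted p = 2.40e-15). Timp3 was higher by 0.80, and Timp1 and Timp2 differed by -0.54 and -1.34.

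Leukocyte and macrophage markers moved with the fibroblast markers, and their part in other results was not tested. Of 19 members 0 were higher and 11 lower, with a median of -0.45. Their list mean ranged from 5.83 to 5.92 in steady 900 arrays, against 6.49 to 6.55 in steady 600 arrays. C1qa, C1qc and Mrc1 differed by -1.19, -1.41 and -1.54. The monocyte marker Cd68 read 8.26, 8.30 and 8.21 in steady 900 cells, against 8.20, 8.21 and 8.17 in steady 600 cells (adjusted p = 0.782). Of 12 endothelial markers 1 was higher and 3 lower, and of 13 loop of Henle and proximal tubule markers 3 were higher and 1 lower. The list mean of the loop and proximal tubule markers ranged from 5.84 to 5.85 in steady 900 arrays, against 5.67 to 5.74 in steady 600 arrays, and Aqp1, at 1.07, led them. Of 13 intercalated cell markers 4 were higher and 1 lower, and the ammonia transporter gene Rhbg, at 1.19, led them.

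Of 14 epithelial markers 5 were higher and 4 lower. Cdh1 and Epcam, the cell adhesion genes that define epithelia, differed by -0.12 and 0.04 and did not pass. Of 11 keratin genes, 4 of which are also epithelial markers, 3 were higher and 4 lower. Krt17, a keratin of stressed epithelia, read 4.92, 4.95 and 4.60 in steady 900 cells, against 6.59, 7.26 and 7.18 in steady 600 cells (4.56-fold lower, adjusted p = 3.81e-13). Its steady 900 values were low on the scale, so this fold can be understated. Krt23 was 2.77-fold higher. Of 23 tight junction genes 6 were higher and 7 lower, among them Tjp3 at 0.97 and Cldn1 at 0.69, against Cldn9 and Cldn6 at -0.93 and -0.98.

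Of 37 cytokine, chemokine and NF-kB target genes, 4 were higher and 13 lower, with a median of -0.06. Csf1, the macrophage growth factor, read 8.38, 8.56 and 8.47 in steady 900 cells, against 10.95, 11.04 and 10.98 in steady 600 cells (5.75-fold lower, adjusted p = 1.17e-16). The interleukin-33 gene Il33 read 7.88, 7.98 and 7.72 in steady 900 cells, against 9.18, 9.34 and 9.22 in steady 600 cells (2.62-fold lower, adjusted p = 1.50e-05), so the ligand and its receptor Il1rl1 were both lower. Lif, Il1a and Il6 differed by -1.52, -1.59 and -1.03. On the other side stood Ccl20 and Cxcl10, a chemokine induced by interferon (2.32-fold, adjusted p = 8.25e-09). Of 10 complement genes 0 were higher and 4 lower, with C3 at -1.12. Of 18 antigen processing genes 0 were higher and 6 lower, with the class II gene RT1-Da at -1.05.

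Of 32 interferon-stimulated genes, 17 were higher and 3 lower, with a median of 0.53. Mx1, an antiviral GTPase, read 10.83, 10.88 and 10.80 in steady 900 cells, against 9.71, 9.26 and 9.18 in steady 600 cells (2.74-fold, adjusted p = 1.87e-05). Irf7, a transcription factor of the interferon response, read 9.45, 9.54 and 9.20 in steady 900 cells, against 8.16, 8.11 and 8.10 in steady 600 cells (2.42-fold, adjusted p = 9.71e-09). Oas1a, an enzyme that senses double-stranded RNA, read 9.16, 8.98 and 8.75 in steady 900 cells, against 7.72, 7.67 and 7.60 in steady 600 cells (2.47-fold, adjusted p = 3.85e-06). The groups did not overlap for 26 of the 32 members, these 3 genes among them, against 42.3% of all genes. The lower members were Gbp2, Irf1 and Ifitm1, at -0.42, -0.47 and -0.68, and Isg15, at 0.15, did not pass.

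The same windows were searched for the core of the interferon-stimulated response element (GAAANNGAAA, or TTTCNNTTTC on the other strand). Of 24 promoters of interferon-stimulated genes 16 held it (66.7%), against 3.14% of the promoters of genes on the array and 3.32% of the whole table. Here too members were searched whether or not they were called. The 2 higher members with the largest increase among those with the motif were Oas1a (chr12:41330216-41330465 on the plus strand) and Irf7 (chr1:205800024-205800273 on the minus strand). They are from RefSeq GRCr8 and are printed as above, to show how the letters lie.
Oas1a: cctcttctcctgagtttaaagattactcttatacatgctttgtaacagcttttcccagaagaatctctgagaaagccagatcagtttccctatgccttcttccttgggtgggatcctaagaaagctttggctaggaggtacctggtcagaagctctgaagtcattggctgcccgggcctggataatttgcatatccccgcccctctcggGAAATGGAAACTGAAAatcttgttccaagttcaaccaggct
Irf7: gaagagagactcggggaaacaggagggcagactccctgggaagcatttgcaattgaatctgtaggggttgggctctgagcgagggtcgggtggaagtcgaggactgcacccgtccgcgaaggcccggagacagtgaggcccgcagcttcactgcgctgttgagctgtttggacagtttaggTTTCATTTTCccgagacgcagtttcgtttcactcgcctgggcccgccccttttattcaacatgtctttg
In Oas1a 2 matches overlap, at -41 to -32 and -35 to -26, and in Irf7 1 match on the other strand lies at -69 to -60. The TonE core (TGGAAA, or TTTCCA), the letters bound by NFAT5, was found in 1 of 6 searchable promoters of tonicity-responsive genes (16.7%), against 17.0% of the promoters of genes on the array.

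Of 30 heat shock proteins and co-chaperones, 8 were higher and 4 lower. Hspa4l, an osmotic stress protein of the heat shock protein family, read 9.49, 9.54 and 9.44 in steady 900 cells, against 8.29, 8.32 and 8.25 in steady 600 cells (2.31-fold, adjusted p = 6.47e-11). Hspa2 and Hsph1 differed by 1.11 and 1.03. Hspb8, a small heat shock protein, was 2.51-fold lower, and its partner Bag3 fell by 0.53. Of 24 genes of the unfolded protein and integrated stress responses 3 were higher and 3 lower. That is near the shares of all genes, 11.3% higher and 12.9% lower. The chaperone gene Hspa5 differed by -0.05. Of 29 antioxidant, glutathione and metallothionein genes 10 were higher and 10 lower. Gsr, glutathione reductase, read 11.28, 11.33 and 11.21 in steady 900 cells, against 10.64, 10.54 and 10.49 in steady 600 cells (1.65-fold, adjusted p = 5.61e-09), and the secreted enzymes Gpx3 and Sod3 were 2.33-fold and 2.47-fold lower.

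Of 32 oxidative phosphorylation subunit genes 1 was higher, Ndufb8 at 0.45, and 0 were lower, with a median of -0.02. Both counts are below the shares of all genes, 11.3% higher and 12.9% lower. Of 26 glycolysis and hypoxia-inducible genes 7 were higher and 5 lower, led by Pfkfb3 at 1.17. Of 24 cholesterol and fatty acid synthesis genes 6 were higher and 4 lower, none past 2-fold.

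Whether the change between 600 and 900 mosmol/kg differed from that between 300 and 600 mosmol/kg was tested as the difference of the 2 changes, which both use the steady 600 arrays. The later change was higher than the earlier in 786 genes (5.42%) and lower in 894 (6.16%). Of the 12 principal cell markers 0 had a positive and 8 a negative difference, and of the 12 tonicity-responsive genes 0 and 6. The 20 water, urea and vasopressin genes had 2 positive and 9 negative differences, and the 13 intercalated cell markers 3 and 2. Aqp2 read 12.13, 12.00 and 12.01 in steady 900 cells, and 6.07, 5.09 and 5.66 in steady 300 cells, and the difference of its changes was -2.49 ± 0.35 SE on the log2 scale (adjusted p = 4.05e-06). The brightest genes are the ones where flattening can shrink a later change. Its part in these differences was not tested. Of the 32 mitosis genes 29 had a positive difference and 0 a negative, and of the 35 S phase genes 15 and 0.

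Of the 19 fibroblast markers 1 had a positive and 11 a negative difference, and of the 19 leukocyte markers 13 and 0. The leukocyte list mean ranged from 8.22 to 8.32 in steady 300 arrays, 6.49 to 6.55 in steady 600 arrays and 5.83 to 5.92 in steady 900 arrays, so most of its decrease lay below 600. The cytokine list had 20 positive and 4 negative differences, and the interferon list 1 and 13.

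Only genes whose steady 900 and steady 600 arrays did not overlap were ranked here. Among them the largest positive differences belonged mostly to inflammatory genes that were higher at 300 mosmol/kg than at 600. Without this filter the cytokine list reached 5.14. Csf3, granulocyte colony-stimulating factor, read 10.75, 10.69 and 10.71 in steady 300 cells, 6.52, 6.38 and 6.42 in steady 600 cells and 7.72, 7.65 and 7.70 in steady 900 cells. Its difference of the 2 changes was 5.53 ± 0.12 SE (adjusted p = 2.03e-23). The neutrophil chemokine gene Cxcl6 read 12.75, 12.62 and 12.58 in steady 300 cells, 6.51, 6.80 and 5.98 in steady 600 cells and 5.55, 5.26 and 5.11 in steady 900 cells (difference 5.10 ± 0.31 SE). Thus Csf3 was again higher at 900, and Cxcl6 went on falling, by less. Olfm4, Cxcl2 and Ccl3 had differences of 5.04, 5.02 and 3.85. Between steady 900 and steady 600 cells Cxcl2 was 1.63-fold higher, a call lost without replicate 3 of steady 600 (adjusted p = 0.0516), and Ccl3 did not pass (adjusted p = 0.252).

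Under the same filter, the largest negative differences belonged to genes that were brightest at 600 mosmol/kg or had already risen there. Defb1, an antimicrobial defensin, read 4.15, 3.97 and 3.96 in steady 300 cells, 6.13, 6.38 and 6.17 in steady 600 cells and 4.13, 4.07 and 4.24 in steady 900 cells (difference -4.28 ± 0.23 SE, adjusted p = 4.74e-14). The choline transporter gene Slc5a7 read 3.97, 4.41 and 4.18 in steady 300 cells, 6.49, 6.66 and 6.86 in steady 600 cells and 4.99, 5.87 and 5.18 in steady 900 cells. The steady 300 and steady 900 values of Defb1 lay below the 25th percentile of genes (4.66), as did the steady 300 values of Slc5a7. Array values flatten there, so these differences can be understated. Fhl1 read 8.31, 8.32 and 8.44 in steady 300 cells, 9.53, 9.92 and 9.71 in steady 600 cells and 7.10, 7.14 and 7.19 in steady 900 cells. All 3 genes peaked at 600, as did Bpifc and the phospholipase gene Plaat3, whose later changes were -1.27 and -1.46. Lypd2 and Padi1 had differences of -3.92 and -3.74. Ptges, Nuf2, Plk1 and Ccna2 had the opposite course, with their lowest steady values at 600. Ptges read 7.47, 7.48 and 7.22 in steady 300 cells, 6.83, 6.27 and 6.08 in steady 600 cells and 8.30, 8.23 and 8.14 in steady 900 cells.

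**Figure D3:**
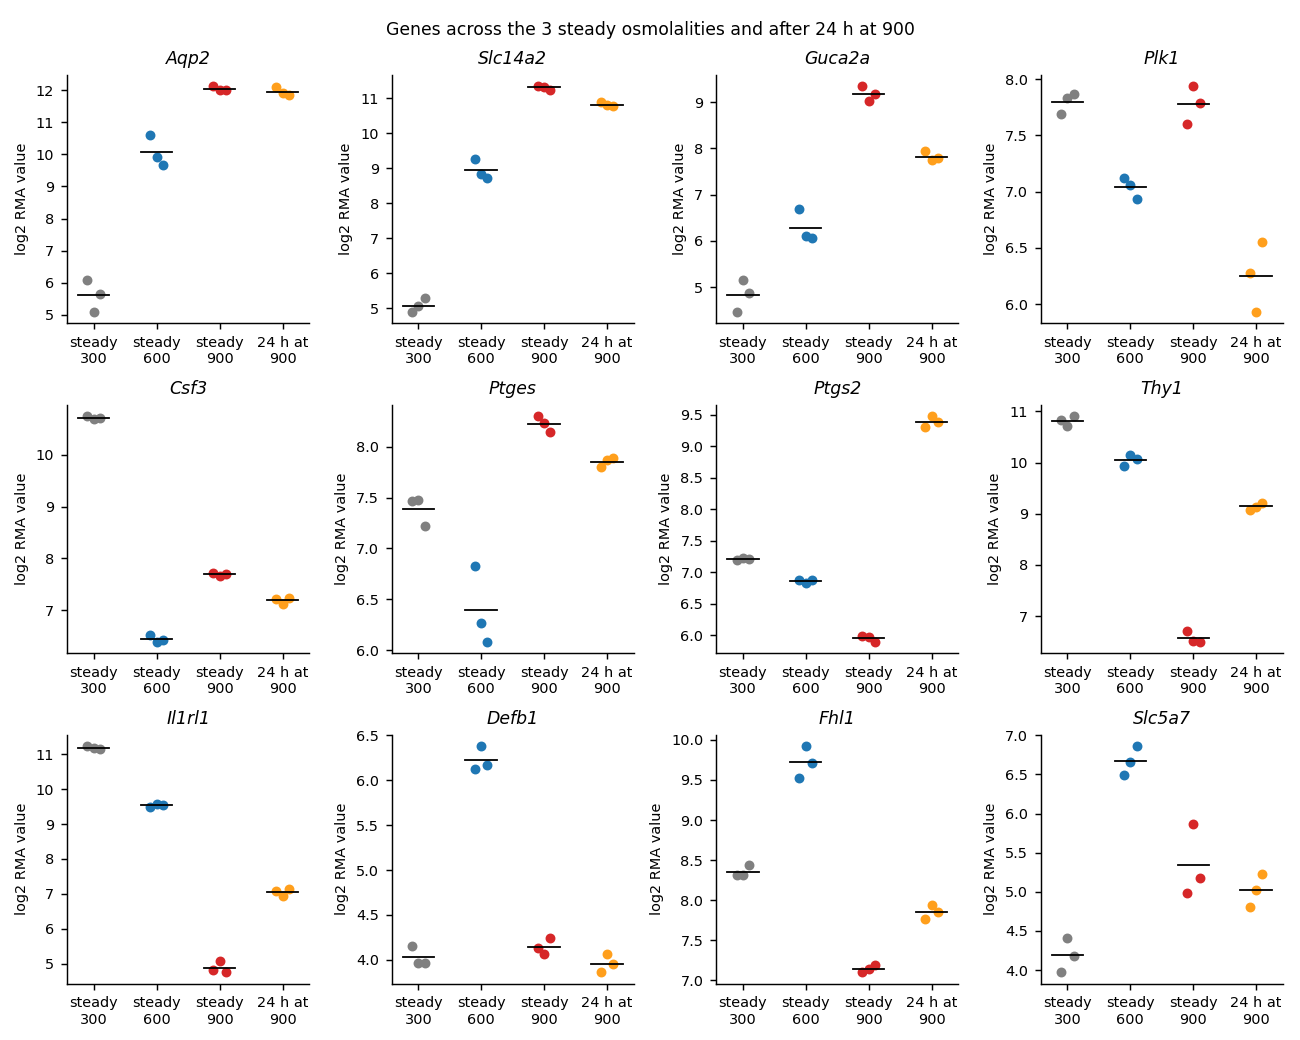
Log2 RMA value (y axis) of each array for 12 genes in steady 300, steady 600, steady 900 and 24 h at 900 cells, with the mean of 3 arrays as a line. Aqp2 and Slc14a2 are higher at each steady osmolality than at the one before, Defb1, Fhl1 and Slc5a7 peak at 600, Csf3 and Ptges are lowest at 600, and Ptgs2 is highest after 24 h at 900.

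The last comparison set cells kept at 900 mosmol/kg against cells from 600 mosmol/kg after 24 h at 900. Of the 14506 genes, 1281 were higher in steady 900 cells (8.83%) and 1373 lower (9.47%). Cell division genes showed the widest gap. Of the 32 mitosis genes 31 were higher and 0 lower in steady 900 cells, with a median of 1.53, and of the 35 S phase genes 33 and 0, with a median of 0.95. Part of this gap lay in the 24 h cells, which read lower than steady 600 cells for most of these genes. Set against steady 600 cells, 0 mitosis genes were higher and 27 lower in 24 h cells (median -0.63). For the S phase genes the counts were 1 and 20 (median -0.35). Over all genes the median of this contrast was 0.01, and the share of genes called in it was not counted. Pbk, a mitotic kinase outside these lists, read 7.92, 8.04 and 8.02 in steady 900 cells, against 4.14, 4.70 and 4.99 in 24 h cells (log2 difference 3.39 ± 0.17 SE, adjusted p = 2.44e-14). Top2a read 9.01, 9.18 and 8.90 in steady 900 cells, against 5.68, 5.72 and 6.64 in 24 h cells (difference 3.02 ± 0.17 SE, adjusted p = 8.65e-14). The array of replicate 9 was the highest of the 24 h group for both. Cenpk, a centromere gene, and Pclaf, a partner of the replication clamp, had differences of 2.76 and 2.70. Slc28a2, a nucleoside transporter gene, read 7.17, 7.05 and 7.09 in steady 900 cells, against 4.78, 4.78 and 4.41 in 24 h cells, while it did not differ from steady 600 cells by the test (adjusted p = 0.0618). The 24 h values of Pbk and Slc28a2 lay near the 25th percentile of genes (4.66), where array values flatten, so their differences can be understated.

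Ptgs2 showed the reverse. It read 5.99, 5.98 and 5.89 in steady 900 cells, against 9.30, 9.48 and 9.39 in 24 h cells (log2 difference -3.44 ± 0.09 SE, adjusted p = 6.28e-21). The neuropeptide Y receptor gene Npy1r read 5.57, 5.99 and 5.92 in steady 900 cells, against 8.16, 8.11 and 8.26 in 24 h cells (difference -2.35 ± 0.13 SE). Thy1 read 6.70, 6.52 and 6.49 in steady 900 cells, against 9.08, 9.13 and 9.22 in 24 h cells (difference -2.57 ± 0.10 SE), and Il1rl1 and Col11a1 had differences of -2.18 and -2.04. Of the 19 collagen genes 0 were higher and 13 lower, and of the 19 fibroblast markers 0 and 11, in steady 900 cells. The YAP targets were closer. Of the 19 members 1 was higher and 4 lower, and Ankrd1 read 7.05, 7.07 and 6.88 in steady 900 cells, against 7.22, 7.17 and 7.33 in 24 h cells (adjusted p = 0.130).

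Leukocyte markers were higher in steady 900 than in 24 h cells, 7 of 19, with 1 lower. Here too the 24 h cells read lower than steady 600 cells, with 0 markers higher and 14 lower (median -1.40, against 0.01 over all genes). Cd68 read 8.26, 8.30 and 8.21 in steady 900 cells, against 6.50, 6.55 and 6.67 in 24 h cells (difference 1.68 ± 0.11 SE, adjusted p = 4.83e-12). Csf1r and Lyz2 had differences of 1.33 and 1.17. Of the 20 water, urea and vasopressin genes 6 were higher and 6 lower in steady 900 than in 24 h cells. The largest difference in each direction was that of Slc14a1 and that of Adcy3, an adenylate cyclase gene, at -1.08. Slc14a1 read 9.65, 9.70 and 9.70 in steady 900 cells, against 7.21, 7.44 and 7.34 in 24 h cells (difference 2.35 ± 0.13 SE, adjusted p = 1.15e-13). Aqp4, Aqp3 and Slc14a2 were higher by 1.39, 0.81 and 0.49, and Pde4d, Prkar2b and Avpr2 differed by -0.59, -0.46 and -0.34. Aqp2, at 0.10 (adjusted p = 0.806), and Mmp13, at 0.07 (adjusted p = 0.835), did not pass. Guca2a and Guca2b were higher in steady 900 cells by 1.37 and 1.40. Of the 14 osmolyte genes 1 was higher and 4 lower, and of the 12 tonicity-responsive genes 1 and 5. Slc5a3 read 9.71, 9.81 and 9.66 in steady 900 cells, against 9.99, 10.08 and 9.86 in 24 h cells (difference -0.25 ± 0.09 SE, adjusted p = 0.0451), and Hspa4l was lower in steady 900 cells by 1.01. Of the 24 stress response genes 0 were higher and 9 lower. In 24 h cells set against steady 600 cells, 11 of them were higher and 1 lower, with a median of 0.20 against 0.01 over all genes. The share of all genes called in that contrast was not counted.

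**Figure D4:**
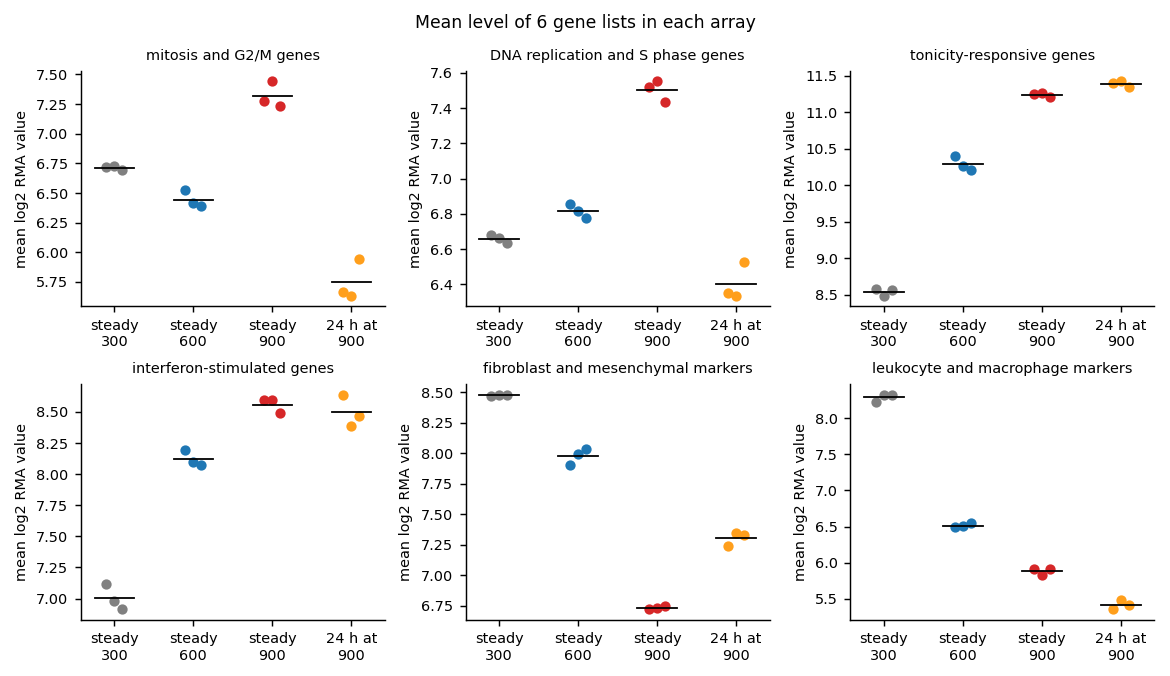
Mean log2 RMA value over the measured members of 6 lists (y axis) in each array of steady 300, steady 600, steady 900 and 24 h at 900 cells, with the mean of 3 arrays as a line. The mitosis list lies between 7.24 and 7.44 in steady 900 arrays, against 5.63 to 5.94 in 24 h arrays, and the fibroblast list between 6.72 and 6.75 in steady 900 arrays, against 7.24 to 7.34 in 24 h arrays.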

How the data were processed

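Total RNA of rat inner medullary collecting duct cultures was hybridised to Affymetrix Rat Gene 1.0 ST arrays, 1 per sample. RMA was used by the authors, per the submitters' processing notes, and the deposited table holds log2 values. No version or summary level of RMA is stated there. Of 29170 probe sets, 15310 had 1 gene symbol in the platform annotation, 323 had several and 13537 had none. Each gene was represented by its single-symbol probe set with the highest mean, which gave 14506 genes.

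Groups came from the sample titles. limma 3.58.1 in R 4.3.3 was fitted with 1 mean per group over all 30 arrays (10 groups of 3), followed by eBayes, and Benjamini-Hochberg adjustment ran over 14506 genes. The same fit gave the difference of the 2 steps and the contrast with 24 h at 900. In simulated data with the same genes and normal noise, 67, 67 and 66 genes were changed by 0.5, 1 and 2 on the log2 scale. Of those changed by 0.5, 53 of 67 were recovered for steady 900 against steady 600. Far fewer genes changed there than were called in the real data, so this share does not carry over to the real data.

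Named were the 12 largest increases and 12 largest decreases with at least a 2-fold change, an adjusted p under 0.05 and no overlap of the 2 groups, and the 5 largest of each sign in the other tests (adjusted p under 0.05, no overlap of steady 900 and steady 600). The 5 largest courses that rose then fell or fell then rose were named too, as were members of lists whose counts are given, and Nfat5, Akr1b1, Slc5a3, Slc6a6, Slc14a2 and Aqp2. Symbols beginning LOC, RGD or MGC were left out. The groups, gene lists and rules were chosen with earlier results of these data known. Alternatives were other scalings, a dim filter at the 30th percentile, the mean of probe sets, other sets of arrays, a replicate block, trend and robust variance, array weights and leaving out each array.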

Additional observations from a re-analysis of the deposited data

How the results depend on the processing

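Counts for steady 900 against steady 600 stayed within 1.5 times of 1641 higher and 1876 lower under all 16 alternatives, as did those at 2-fold. The share of calls that were lower was 53.3%, against 50.8% after quantile normalization, 48.5% after median centring and 46.4% with cyclic loess. Leaving out 1 array gave 1362 to 1496 higher and 1533 to 1726 lower, and at 2-fold 175 to 213 higher and 251 to 289 lower. For the difference of the 2 steps (786 positive, 894 negative) these ranges were 567 to 735 and 648 to 837, and for steady 900 against 24 h at 900 (1281 higher, 1373 lower) 951 to 1117 and 1005 to 1123. Array weights gave more calls, 1355 positive and 1729 negative for the difference of the steps, and 2050 higher and 2214 lower against 24 h at 900. The cause was not tested. Same-numbered steady 900 and steady 600 arrays had deviations that correlated at -0.01, 0.15 and 0.03, and different-numbered ones at -0.14 to 0.10. With steady 300 arrays, same-numbered steady 900 arrays correlated at 0.01 to 0.07 and different-numbered ones at -0.06 to 0.03. For steady 600 these ranges were 0.02 to 0.04 and -0.04 to 0.004. The labels state no pairing, and these weak values do not settle whether there was one. With the replicate number as a block, 1658 genes were higher and 1910 lower in steady 900 cells.

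Of 833 list members and named genes, 453 were called, 382 of these under all 16 alternatives. A further 71 lost the call under at least 1, 98 gained one, and 0 changed sign while called. Limits are the 3 arrays per group, the flattening of array values at both ends of the scale, the missing solute and culture details, and the unsettled use of cyclosporin A.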

Other observations

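Lists without a place above were described in the same way, for steady 900 against steady 600 cells. Over all genes, 11.3% were higher and 12.9% lower. Of 15 circadian clock genes, 9 were higher and 2 lower. Nr1d1, a repressor of the clock, read 8.27 in each of the 3 steady 900 arrays, against 7.34, 7.31 and 7.41 in steady 600 arrays (1.89-fold, adjusted p = 3.32e-09). Cry2 and Dbp differed by 0.66 and 0.60, and Nfil3, a repressor of Dbp targets, was lower by 0.46. The time of day of harvest is not given in the sources used here. Of 16 BCL2 family and executioner caspase genes 1 was higher and 6 lower. Bok was 1.87-fold higher, while Apaf1, which assembles the apoptosome, was 1.72-fold lower and the pro-apoptotic genes Bmf and Bcl2l11 differed by -0.75 and -0.73.

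Of 21 cell volume carriers and regulators 7 were higher and 5 lower. The potassium channel gene Kcnq1 and the cotransporter gene Slc12a2 differed by 1.03 and 0.67, against -0.82 for the exchanger gene Slc9a2. Of 25 amino acid transporters 4 were higher and 7 lower, from Slc7a8 at 0.81 to Slc3a1 at -0.99. Of 25 immediate early genes and MAPK phosphatases 3 were higher and 8 lower, and Dusp2 read 8.24, 8.23 and 8.16 in steady 900 cells, against 9.53, 9.59 and 9.61 in steady 600 cells. Of 29 WNT and BMP pathway genes 6 were higher, led by Wnt4 at 0.86, and 9 lower, with Dkk3 at -1.30. Of 12 EGF receptor ligands and ERBB receptors 3 were higher and 3 lower, with the feedback inhibitor Errfi1 at -1.39. Of 11 tubule injury genes 1 was higher and 5 lower, and the injury marker Havcr1, at -0.32, did not pass. Of 9 laminin and basement membrane genes 2 were higher and 0 lower. Of 14 calcineurin and calcium-dependent NFAT genes 0 were higher and 4 lower, and the feedback gene Rcan1 differed by -0.01 and did not pass. Among 13537 probe sets with no gene symbol, 573 were higher and 586 lower in steady 900 cells.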
